A study of Homo sapiens with 2 samples.

Results

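Integrin and laminin subunits were examined by RNA-Seq in A1847, an established line of human ovarian cancer cells. The group comprised the 26 genes of integrin alpha and beta subunits and 11 genes of laminin alpha, beta and gamma chains that were listed for this work, which is 37 of the 57736 Ensembl genes in the deposited table, and all 37 were found in it by symbol. The comparison was between 1 library of parental control cells, which are CARM1 wild type, and 1 library of CARM1 knockout (CARM1 KO) cells. CARM1 KO cells were made with a CRISPR vector, pLentiCRISPR v2, that carries a guide RNA against CARM1, an arginine methyltransferase. Both groups were grown in the same serum-containing medium. Cells infected with viruses that carry puromycin resistance were selected in puromycin, and whether the parental cells were ever exposed to it is not given in the sources used here. The CARM1 KO cells are described as 1 clone, so that the loss of CARM1 cannot be told apart from what sets any single clone off from the cells it came from. No difference below has a replicate check, and every interval covers counting error only.

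Integrins are receptors made of 1 alpha and 1 beta subunit that span the plasma membrane and hold cells to extracellular matrix or to other cells. The alpha subunit largely sets which ligand is bound, and the beta tail is linked through talin and kindlin to actin, or in the case of ITGB4 through plectin to keratin filaments. Laminins are secreted trimers of 1 alpha, 1 beta and 1 gamma chain that polymerise into the basement membrane, the sheet on which epithelial cells rest, and they are bound mainly by integrins with the ITGA3, ITGA6 or ITGA7 subunit.

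Of the members with at least 1000 reads in a library, ITGAV and ITGA1 were more than 3-fold lower and LAMA1 and LAMB1 more than 3-fold higher in CARM1 KO cells. None of these 4 was called by edgeR's exact test when a coefficient of variation of 0.4 between replicates was assumed, and LAMB1 was not called when its whole interval had to lie past 3-fold. ITGAV, the alpha subunit of the receptors for ligands with an RGD motif, gave 36023 reads in the parental library and 9664 in the knockout library, the order kept for all paired values below. ITGA1, a collagen receptor subunit, had 2775 and 498 reads. LAMA1, a laminin alpha chain typical of early basement membranes, had 1309 and 5233 reads, and LAMB1, its usual beta chain partner, had 1134 and 3626 reads. Some members that were nearly silent in parental cells also rose, led by ITGB4 with 8 and 157 reads and ITGB3 with 5 and 68 reads. Others did not, such as ITGA10 with 5 reads in each library. ITGB1, the most read member, differed less, with 63012 and 43374 reads, and the knockout level was 1.5-fold lower (95% interval 1.48 to 1.52), short of the 3-fold limit.

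**Figure D1:**
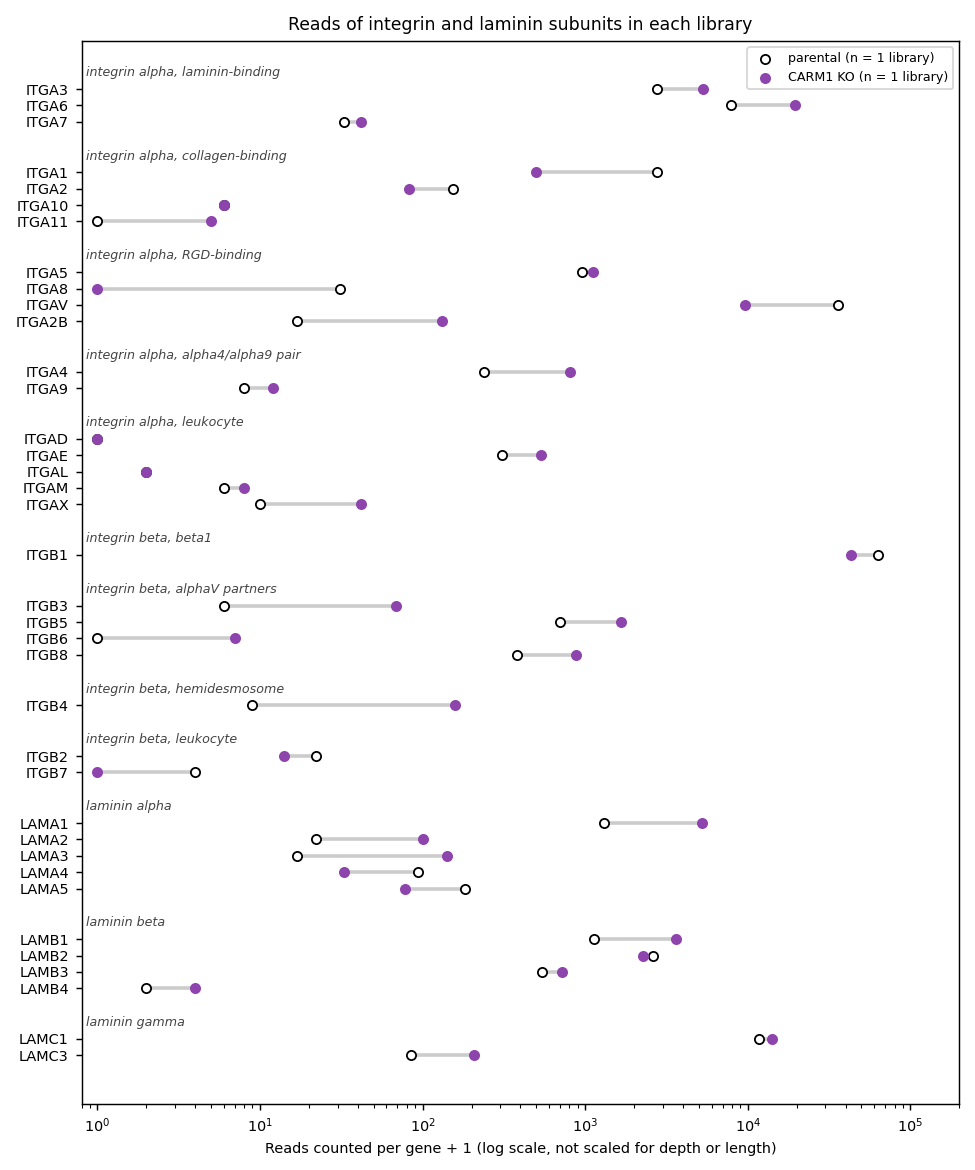
Reads counted for each of the 37 members, drawn as the count plus 1 on a log axis, in the parental library (open circles) and the CARM1 KO library (filled circles), grouped by role and not corrected for depth or gene length. ITGAV and ITGA1 lie to the left in CARM1 KO cells, and LAMA1, LAMB1, ITGB4 and ITGB3 lie to the right.

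The parental library held 30741953 reads and the knockout library 32300391, and fold changes were taken after scaling by edgeR's TMM method. CARM1 itself had 975 and 380 reads, which was 2.65-fold lower in the library labelled CARM1 KO (95% interval 2.35 to 2.99). Guide-directed edits need not lower a transcript, so the reads alone do not show whether the protein was lost. The study examined CARM1 protein in both kinds of cells by immunoblot. It also reports less methylation of BAF155, a CARM1 substrate, in the knockout. Of the ovarian epithelial tumour markers checked, KRT7, KRT8, KRT18, PAX8, EPCAM, MSLN and FOLR1 had from 59 to 70370 reads in a library, and all but KRT18 of these were called higher in CARM1 KO cells, as was CLDN3 with 0 and 10 reads. KRT19 with 45 and 0 reads and MECOM with 16 and 5 reads were called lower, and MUC16, WT1 and CLDN4 had at most 8 reads in either library. The summed level of the 13 epithelial markers was 1421 and 4738 CPM, that is, reads relative to the TMM-scaled library size. Of the 9 fibroblast markers, 6 were called lower in CARM1 KO cells, and the summed level of the 9 was 1505 and 21.6 CPM. COL3A1 had 14587 and 1, PDGFRA 14326 and 2, and COL1A2 16732 and 3 reads, THY1, LUM and DCN went the same way with 678 and 4, 61 and 1, and 24 and 0 reads, while COL1A1 was higher, with 131 and 537 reads, and PDGFRB had 132 and 142 reads. The part of these epithelial and fibroblast markers in the values of integrin and laminin genes was not tested. Both libraries are bulk samples of cultured A1847 cells, in which fewer cells of a kind and less RNA per cell cannot be told apart.

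A gene was called when its scaled fold change was above 3 and the exact 95% binomial interval of the fold change left out no change, among genes whose reads summed to at least 10 over the libraries. By this rule 12.3% of 18563 genes were higher and 11.3% were lower in CARM1 KO cells, which is 23.6% called in either direction. Among the integrin and laminin genes 31 of 37 had enough reads, and of these 9 were called higher and 4 lower, or 29.0% and 12.9%. The share called higher was above the background and the share called lower was close to it. Of the 13 called members, 4 had under 10 reads in 1 of the libraries and could enter the comparison through the library in which they were high. The median log2 fold change of the 31 members was 0.49, against -0.03 for all genes compared, and the median size of the change was 1.23 against 0.69 on the log2 scale. For 5 of the 31 members the interval included no change.

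The 3 members not called but nearest to the limit on the higher side were LAMC3, ITGA6 and ITGB5, at 2.37-fold, 2.37-fold and 2.30-fold, and LAMA5 was nearest on the lower side at 2.43-fold. LAMA4 lay on the limit itself at 3.001-fold lower (95% interval 1.99 to 4.64), and it was not called when the libraries were scaled by DESeq2 size factors or by the upper quartile.

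**Figure D2:**
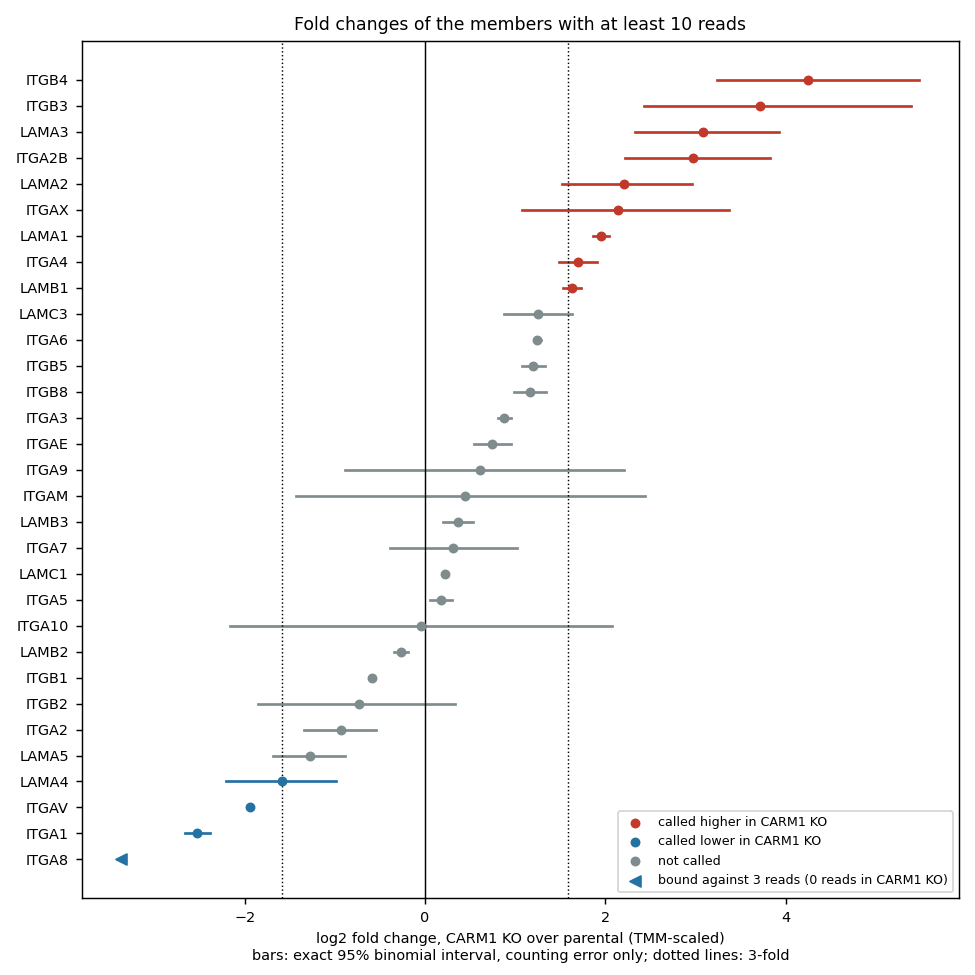
log2 fold change of CARM1 KO over parental cells for the 31 members whose reads summed to at least 10, with exact 95% binomial intervals as bars and 3-fold marked by dotted lines. The 9 members called higher are headed by ITGB4, and the 4 called lower are LAMA4, ITGAV, ITGA1 and ITGA8, the last drawn as a bound.

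The promoters of the called members with at least 1000 reads in either library are shown because these are the called genes with the most reads. They are the 250 bases before the start of the Ensembl canonical transcript in GRCh37, read 5′ to 3′ on the strand of the gene, with each CpG dinucleotide, the site of DNA methylation, in capitals. That of ITGA1 lies at chr5:52083500-52083749 on the plus strand, that of ITGAV at chr2:187454533-187454782 on the plus strand, that of LAMA1 at chr18:7117797-7118046 on the minus strand and that of LAMB1 at chr7:107643607-107643856 on the minus strand.
ITGA1: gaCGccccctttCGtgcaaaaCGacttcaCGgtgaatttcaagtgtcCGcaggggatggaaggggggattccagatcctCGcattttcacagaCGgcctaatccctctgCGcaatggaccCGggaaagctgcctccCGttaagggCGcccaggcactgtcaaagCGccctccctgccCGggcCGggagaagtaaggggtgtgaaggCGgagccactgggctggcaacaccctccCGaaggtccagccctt
ITGAV: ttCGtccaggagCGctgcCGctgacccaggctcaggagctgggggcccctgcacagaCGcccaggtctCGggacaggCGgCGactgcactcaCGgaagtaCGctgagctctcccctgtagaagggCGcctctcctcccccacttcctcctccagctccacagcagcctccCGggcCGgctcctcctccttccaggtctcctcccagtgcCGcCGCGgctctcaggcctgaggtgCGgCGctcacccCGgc
LAMA1: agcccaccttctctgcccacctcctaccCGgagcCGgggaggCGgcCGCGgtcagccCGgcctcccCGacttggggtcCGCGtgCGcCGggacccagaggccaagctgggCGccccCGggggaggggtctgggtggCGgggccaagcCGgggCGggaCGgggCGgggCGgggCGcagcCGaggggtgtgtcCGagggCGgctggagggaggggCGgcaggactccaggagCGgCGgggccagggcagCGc
LAMB1: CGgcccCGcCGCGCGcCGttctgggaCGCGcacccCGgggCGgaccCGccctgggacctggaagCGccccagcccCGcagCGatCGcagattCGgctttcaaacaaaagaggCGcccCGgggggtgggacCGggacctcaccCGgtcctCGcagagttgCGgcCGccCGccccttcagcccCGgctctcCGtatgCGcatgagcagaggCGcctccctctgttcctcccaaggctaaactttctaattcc

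The promoters of the lowered ITGA1 and ITGAV held 16 and 18 CpG, and those of the raised LAMA1 and LAMB1 held 27 and 28. The GC box, GGGCGG on either strand, occurred 5 times in the LAMA1 and 4 times in the LAMB1 window and 0 times in the ITGA1 and ITGAV windows. Over all called members it was in the windows of 6 of 9 higher and 1 of 4 lower genes, as ITGA8, called lower, held 4 and ITGA2B, ITGA4 and LAMA2, called higher, held 0. Of all 19109 promoters of protein-coding genes read in this way, 60.0% held a GC box, and the median number of CpG was 18. For the promoters of genes compared these values were 70.3% and 22. Over all called members the medians were 25 CpG for the 9 higher and 17 for the 4 lower. Over all genes called, the medians were 19 CpG for those higher and 17 for those lower, and 66.9% and 59.5% held a GC box. Members that were not called had a median of 21, and 15 of these 18 held a GC box. The TATA box, TATAAA on either strand, was in 0 of the 37 members' windows and in 9.02% of all promoters. The AP-1 motif TGANTCA on either strand was in 3 of the 37 members' windows, or 8.11%, against 4.65% of all promoters. The TEAD motif GGAATG on either strand was in 6, or 16.2%, against 9.76% of all promoters. Of these 6, ITGB4, LAMA2 and LAMA3 were called higher, and ITGA5, ITGA10 and ITGB1 were not called. Among the promoters of all genes called higher 10.2% held the motif, and a link of the motif to the changes was not tested.

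Of the alpha subunits that bind laminin, 0 of 3 passed the 3-fold limit, although ITGA3 and ITGA6 were higher in CARM1 KO cells beyond counting error. ITGA6, which pairs with ITGB1 or ITGB4, lies at chr2:173292082-173371187 and had 7921 and 19380 reads, a 2.37-fold difference (95% interval 2.31 to 2.43). ITGA3, the partner of ITGB1 in the receptor for epithelial laminins, had 2771 and 5270 reads, a 1.84-fold difference (95% interval 1.76 to 1.93). ITGA7, the laminin receptor subunit of muscle, had 32 and 41 reads, and its interval from 0.762-fold to 2.04-fold included no change.

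The collagen-binding alpha subunits were low or lower in CARM1 KO cells, with 1 of the 3 compared called lower and 0 called higher. ITGA1 lies at chr5:52083750-52255039, and its fall was 5.75-fold (95% interval 5.23 to 6.34). Exons of other genes cover 13.2% of its exon bases, chiefly those of PELO, which had 1542 and 926 reads, and reads there could be split between the genes in the counting. ITGA2, the neighbour of ITGA1 on chromosome 5 and the alpha subunit of the collagen receptor of epithelia and platelets, had 152 and 82 reads, 1.91-fold lower (95% interval 1.45 to 2.54). ITGA10, a cartilage subunit, had 5 reads in each library. ITGA11, typical of fibroblasts, had 0 and 4 reads and was not compared.

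The alpha subunits for RGD ligands moved in opposite directions. ITGAV lies at chr2:187454737-187545628 and fell 3.85-fold (95% interval 3.76 to 3.94). ITGA8, a partner of ITGB1 that binds nephronectin in the developing kidney, went from 30 reads to 0, a fall of at least 10.3-fold when the 0 is set to 3 reads. ITGA2B, the alpha subunit of the platelet fibrinogen receptor, rose from 16 to 130 reads, which was 7.87-fold (95% interval 4.67 to 14.2). ITGA5, the alpha subunit of the main fibronectin receptor, was almost level, with 955 and 1115 reads and a 1.13-fold difference (95% interval 1.04 to 1.23).

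Of the related subunits ITGA4 and ITGA9, which bind VCAM1 among other ligands, ITGA4 rose and ITGA9 stayed near the read minimum. ITGA4 had 239 and 800 reads, a 3.24-fold rise (95% interval 2.80 to 3.76), at chr2:182321929-182403667. Exons of CERKL overlap 26.4% of its exon bases, but CERKL had only 4 and 20 reads. ITGA9 had 7 and 11 reads, with an interval from 0.539-fold to 4.63-fold, and ITGA9-AS1, which overlaps 9.23% of its exon bases, had 45 and 16 reads.

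The subunits of leukocyte integrins were mostly at the edge of detection. ITGAD had 0 reads in both libraries, ITGAL 1 read in each and ITGAM 5 and 7 reads. ITGAX, the alpha subunit of a complement receptor of myeloid cells, rose from 9 to 41 reads, which was 4.41-fold (95% interval 2.11 to 10.3), while its partner ITGB2 had 21 and 13 reads. ITGAE, the alpha subunit that binds E-cadherin on epithelial cells, was the exception in level, with 309 and 534 reads, a 1.67-fold difference (95% interval 1.45 to 1.93). HASPIN, with 899 and 1108 reads, overlaps 7.65% of the ITGAE exon bases. Its partner ITGB7 had 3 and 0 reads. Of the 13 leukocyte markers, 5 had 0 reads in both libraries, CD3D, CD3E and MS4A1 among them, and the pan-leukocyte marker PTPRC had 6 and 0 reads. Of the 5 leukocyte markers compared, 3 were called higher, CD68 and CD14 among them, and 0 lower. These shares were 60.0% and 0%, against 12.3% and 11.3% over all genes. CD68, a lysosomal protein abundant in macrophages, rose 3.98-fold from 400 to 1644 reads, and CD14 rose from 1 to 9 reads. CD8A had 20 and 15 reads and LYZ had 17 and 14. All 7 platelet markers, GP1BA, GP6 and PPBP among them, had at most 3 reads in either library. The endothelial markers KDR, ESAM and TEK had at most 20 reads. The summed level of the leukocyte markers was 14.6 and 53.1 CPM, and the part of the leukocyte markers in the rise of ITGAX was not tested.

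All 4 ITGAV partners other than ITGB1 had more reads in CARM1 KO cells, where ITGAV itself had fewer, and 1 of the 3 compared passed the 3-fold limit. ITGB3, the partner of ITGAV in the vitronectin receptor and of ITGA2B in platelets, lies at chr17:45331193-45391109 and rose 13.2-fold (95% interval 5.38 to 41.9). An overlapping gene without a symbol, with 0 and 7 reads, covers 33.2% of the ITGB3 exon bases. ITGB5 had 704 and 1671 reads, a 2.30-fold difference (95% interval 2.10 to 2.51). ITGB8, which takes part in the activation of latent TGF-beta, had 378 and 877 reads, a 2.25-fold difference (95% interval 1.99 to 2.54). ITGB6, the epithelial partner in the same process, had 0 and 6 reads and was not compared. With ITGAV as the reference, which cancels both depth and gene length, the ratio of ITGB5 to ITGAV reads was 8.85 times as high in CARM1 KO as in parental cells (95% interval 8.08 to 9.69) and that of ITGB8 was 8.65 times as high (95% interval 7.65 to 9.78).

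ITGB4, which pairs only with ITGA6 and anchors the hemidesmosome, the junction of epithelial cells with the basement membrane, had the highest fold change among the members, although its interval overlapped that of ITGB3. It lies at chr17:73717408-73753899 and rose 19.0-fold (95% interval 9.41 to 44.8). Its level nevertheless remained low, at 0.725 CPM per kilobase of exon (below, per kilobase) in CARM1 KO cells against 90.6 for ITGA6. Thus the ITGB4 level was 0.00800 of the ITGA6 level in CARM1 KO cells and 0.000998 of it in parental cells.

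Of the laminin alpha chains, 3 of 5 were called higher and 1 lower. LAMA1 lies at chr18:6941741-7117796 and rose 3.87-fold (95% interval 3.64 to 4.12). LAMA3, the alpha chain of the laminin beneath stratified epithelia, had 16 and 140 reads, an 8.47-fold rise (95% interval 5.04 to 15.2). LAMA2, the chain of muscle basement membrane, had 21 and 100 reads, a 4.61-fold rise (95% interval 2.86 to 7.77). LAMA4, the chain of vessel and mesenchymal basement membrane, fell from 93 to 32 reads. LAMA5, the most widespread alpha chain of adult epithelia, had 181 and 77 reads, 2.43-fold lower (95% interval 1.85 to 3.21). The ratio of LAMA1 to LAMA5 reads was 9.40 times as high in CARM1 KO cells (95% interval 7.15 to 12.4).

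Among the beta and gamma chains LAMB1 was the 1 gene called. It lies at chr7:107564244-107643658 and rose 3.10-fold (95% interval 2.9 to 3.31). LAMB2, the chain of neuromuscular and kidney basement membranes, had 2627 and 2254 reads, 1.20-fold lower (95% interval 1.14 to 1.27). LAMB3, the partner of LAMA3, had 541 and 720 reads, a 1.29-fold difference (95% interval 1.15 to 1.44), and LAMB4 had 1 and 3 reads. LAMC1, the gamma chain of most laminins, had 11635 and 13999 reads, a 1.17-fold difference (95% interval 1.14 to 1.19), a much smaller difference than those of LAMA1 and LAMB1, with which it assembles. LAMC3 had 84 and 206 reads, a 2.37-fold difference (95% interval 1.83 to 3.10).

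Levels of different genes were compared per kilobase of merged exon length. In parental cells the order began with ITGB1 at 140 per kilobase, ITGAV at 60.1, LAMC1 at 44.4, ITGA6 at 38.2 and LAMB2 at 12.3. In CARM1 KO cells it began with ITGB1 at 93.0, ITGA6 at 90.6, LAMC1 at 51.8, ITGA3 at 16.8 and ITGAV at 15.6. ITGAV thus passed from rank 2 among the members to rank 5, or to rank 4 with the longest transcript as the length, and ITGA6 from rank 4 to rank 2 with either length. ITGAV made up 50.2% of the summed alpha subunit level in parental and 11.6% in CARM1 KO cells, and ITGA6 made up 31.9% and 67.2%. With the length of the longest transcript in place of merged exons these shares were 64.7% and 19.9% for ITGAV and 19.4% and 54.6% for ITGA6. The ratio of ITGA6 to ITGAV reads, which needs no length, was 9.12 times as high in CARM1 KO cells (95% interval 8.81 to 9.44).

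The integrin beta level was mostly ITGB1 in both libraries, and the laminin alpha level was mostly LAMA1. ITGB1 made up 96.9% of the summed beta subunit level in parental and 89.5% in CARM1 KO cells. LAMA1 made up 78.7% of the laminin alpha level in parental and 93.9% in CARM1 KO cells, while the summed alpha level was 3.38 and 10.98 per kilobase. LAMB1 made up 10.9% and 28.7% of the laminin beta level and LAMB2 68.3% and 48.4%. With the longest transcript LAMB1 made up 22.3% and 48.8%, so the order of LAMB1 and LAMB2 in CARM1 KO cells depended on the length used. The ratio of LAMB1 to LAMB2 reads was 3.73 times as high in CARM1 KO cells (95% interval 3.42 to 4.07). The level of LAMC1 and LAMC3 together was 44.7 and 52.5 per kilobase, above the alpha and beta sums in both libraries.

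**Figure D3:**
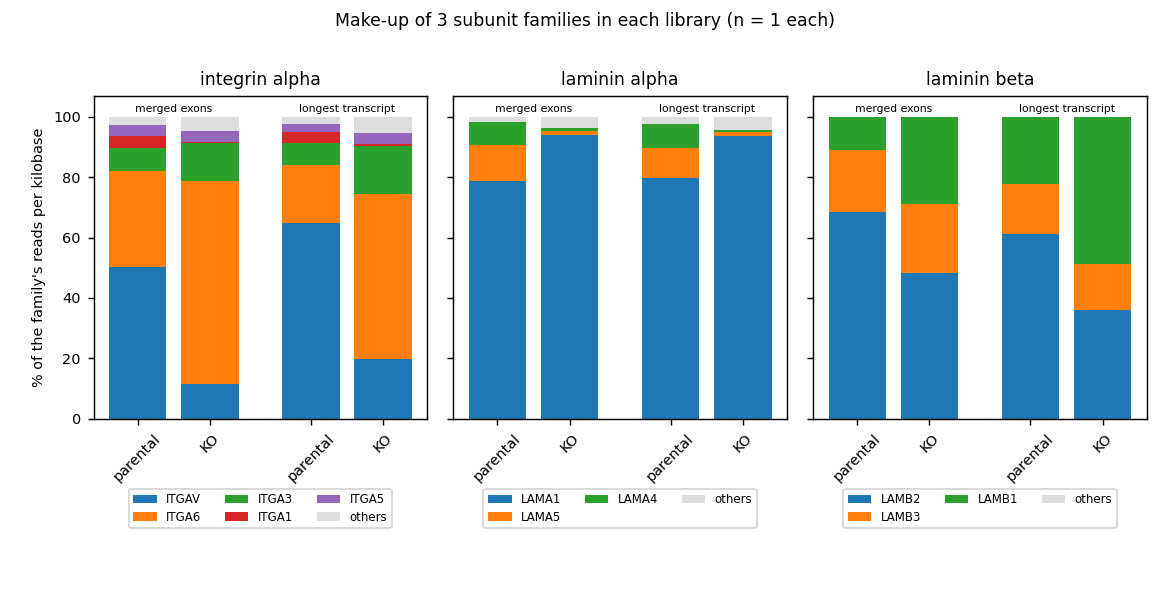
Share of each gene in the summed level per kilobase of integrin alpha subunits, laminin alpha chains and laminin beta chains, in the parental and the CARM1 KO library, with the lengths of merged exons (left pair of bars) and of the longest transcript (right pair of bars). ITGAV gives way to ITGA6 under both lengths, whereas LAMB1 passes LAMB2 only with the longest transcript.

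Known heterodimers were read off the same calls. Of 24 alpha and beta combinations, 6 had a partner under the read minimum and in 8 neither partner was called. Both partners were called higher in 1 combination, ITGA2B with ITGB3, and in 1 combination, ITGAV with ITGB3, the calls were opposite. In the other 8 combinations 1 partner was called, among them ITGA1, ITGA8 and ITGAV with ITGB1, where the alpha subunit fell, and ITGA4 with ITGB1 and ITGA6 with ITGB4, where 1 subunit rose. The ratio of ITGAV to ITGB1 reads fell 2.57-fold in the knockout library (95% interval 2.50 to 2.63) and that of ITGA1 to ITGB1 was 3.84-fold lower (95% interval 3.48 to 4.22).

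Positions on the chromosomes were compared with the calls by the median log2 fold change of the 10 nearest protein-coding genes with at least 50 reads, 5 on either side, without members. The medians ranged from -1.27 around ITGAV, where 4 of the 10 genes were called lower and 0 higher, to 1.19 around ITGB8, where 5 were called higher and 1 lower. ITGAV itself had a log2 fold change of -1.94 and ITGB8 of 1.16. Around ITGA1 and ITGA2, which lie side by side, the median was -0.89. Some members went against their surroundings. Among those higher, LAMB1, ITGAX and ITGA6 had 1.63, 1.93 and 1.24, with -0.89, -0.78 and -1.08 for their neighbours. Among those lower, ITGA8, with 30 and 0 reads, and LAMA5 had -4.02 and -1.26, with 0.10 and 0.39 for their neighbours. The neighbours' median had the sign of the member in 20 of 31 members, or 64.5%. Among all 12292 protein-coding genes with at least 50 reads the share was 63.7%, close to that of the members, some of which had fewer reads. For called genes it was 10 of 13 members, against 66.1% of the 2277 called genes among the 12292. DNA copy number was not analysed here, and its part in these values was not tested.

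**Figure D4:**
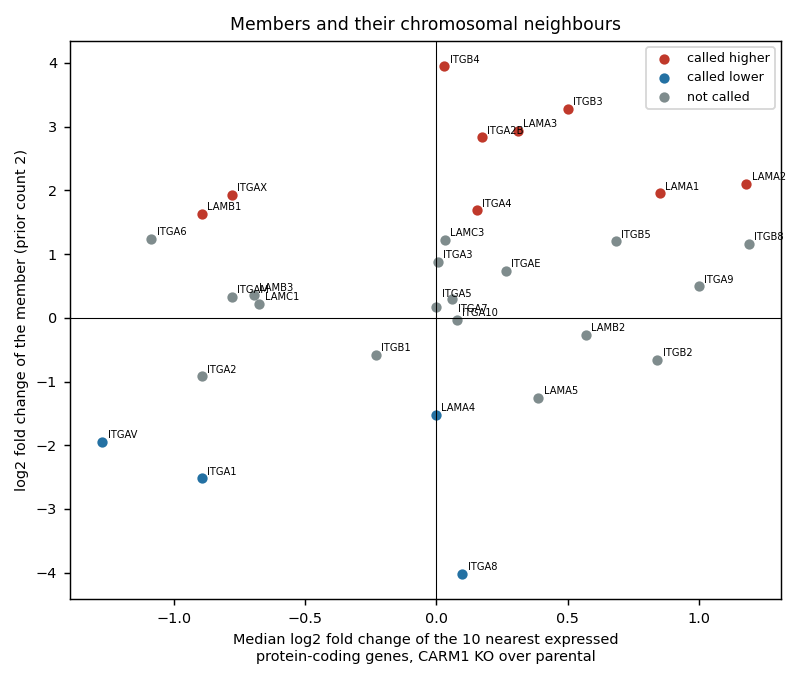
log2 fold change of each of the 31 members compared (vertical axis) against the median of the 10 nearest expressed protein-coding genes (horizontal axis), both as CARM1 KO over parental cells. ITGAV and ITGA1 lie at the lower left with lowered neighbours, and LAMB1 and ITGA6 lie above 0 with lowered neighbours.

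The genes around integrins and laminins were followed in 5 lists. Over all genes compared, 12.3% were called higher and 11.3% lower. The focal adhesion and integrin activation genes link the beta tail to actin and to kinases. Of these, 4 of 42 compared were called higher, or 9.52%, and 0 lower, both under the shares over all genes. Among the 4 called were NEDD9, a docking protein, with 400 and 2804 reads, TNS1 with 66 and 240 reads and PARVG with 7 and 37 reads. The median size of the log2 change in this list was 0.70, close to the 0.69 for all genes compared. Of its 42 genes, 30 had a positive and 12 a negative log2 fold change, against 9007 and 9556 of all genes compared. More than 2-fold differences were seen for 14 of the 42, against 7159 of all 18563 genes compared. VCL, which binds talin, was 1.61-fold lower (95% interval 1.58 to 1.65) and FLNA, an actin crosslinker, was 1.23-fold higher (95% interval 1.20 to 1.26).

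Of the other basement membrane genes, 6 of 18 compared were called higher and 6 lower, or 33.3% each, against 12.3% and 11.3% over all genes. The paired type IV collagen genes went apart, as COL4A1 rose from 703 to 3315 and COL4A2 from 1063 to 4528 reads, whereas COL4A5 fell from 783 to 253 and COL4A6 from 193 to 31 reads. COL4A4 rose from 10 to 83 reads. NID1, which bridges laminin and type IV collagen and binds the laminin gamma chain, fell 7.99-fold (95% interval 6.86 to 9.34), from 1470 to 190 reads. FREM2 fell from 14900 to 468 and FREM1 from 43 to 5 reads, whereas FRAS1, whose protein forms a complex with both, rose from 27 to 354 reads. NTN4, a laminin-related netrin that binds laminin gamma chains, rose from 14 to 472 reads, which was 32.6-fold (95% interval 19.3 to 60.2). PXDN, which crosslinks type IV collagen, rose from 21 to 117 reads, and COL15A1 fell from 293 to 60 reads. SPARC, a collagen-binding matrix protein, was 1.76-fold higher with 5639 and 10253 reads.

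Of the laminin receptors that are not integrins, 2 of 15 compared were called higher and 1 lower. These shares, 13.3% and 6.67%, were near or under the 12.3% and 11.3% over all genes. DAG1, the gene of dystroglycan, was 1.48-fold lower with 3030 and 2109 reads. SGCA, a sarcoglycan of the dystroglycan complex, had 95 and 0 reads and was at least 32.7-fold lower, and SSPN of the same complex rose from 2 to 10 reads. The syndecan SDC2 rose 3.80-fold from 1128 to 4424 reads, and SDC4 had 1418 and 4129 reads, 2.82-fold higher. Of the hemidesmosome and tetraspanin genes, 3 of 9 were called higher, or 33.3%, and 0 lower. All 9 had more scaled reads in CARM1 KO cells. DST, whose epithelial form ties ITGB4 to keratin, rose from 12472 to 47934 reads, COL17A1, a hemidesmosome collagen, from 17 to 88 reads and the tetraspanin CD9 from 624 to 2013 reads. CD63, another tetraspanin, had 4036 and 7878 reads. PLEC, the plectin gene, was 2.32-fold higher with 2049 and 4906 reads.

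Of the genes of integrin ligands, 10 of 30 compared were called higher and 6 lower. Both shares were above the 12.3% and 11.3% over all genes. Of the 30 genes, 18 had a positive and 12 a negative log2 fold change. FN1, the gene of fibronectin and a ligand of ITGA5 and ITGAV receptors, rose 14.8-fold from 14018 to 214759 reads, while ITGA5 and ITGAV differed as given above. THBS1 rose from 4510 to 35487, TNC from 43 to 578, ICAM2 from 62 to 500 and THBS2 from 2 to 28 reads. CDH1, the E-cadherin gene and ligand of ITGAE, rose from 3 to 53 reads. POSTN, a ligand of ITGAV receptors, fell from 32601 to 7 reads, VTN from 57 to 0, EDIL3 from 569 to 41, EMILIN1 from 115 to 13, TGFB3 from 99 to 14 and LTBP1 from 261 to 74 reads. ADAM9 was 2.71-fold higher with 9199 and 25741 reads. The median log2 fold changes of the 5 lists lay between 0.32 and 0.95.

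**Figure D5:**
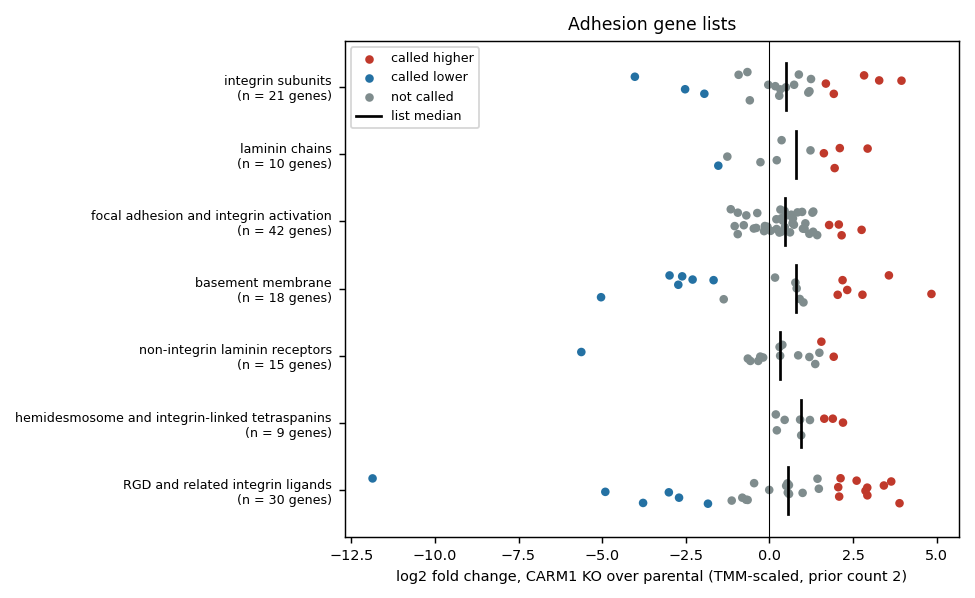
log2 fold change of CARM1 KO over parental cells for the compared genes of the integrin and laminin families and of the 5 surrounding lists, with 1 point per gene and a bar at the median. Basement membrane genes and integrin ligands spread to both sides, whereas focal adhesion genes stay closer to 0.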

How the data were processed

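RNA was depleted of ribosomal RNA with a ScriptSeq complete Gold kit and sequenced as paired ends. The authors used bowtie2 for alignment to hg19 and RSEM with Ensembl gene models, and the deposited table holds its estimated counts, all whole numbers and not normalized. Reads that match several genes are divided between them by RSEM, and the use of strand is not given in the sources used here. Genes were named from GENCODE release 44 lifted to GRCh37, the same assembly as hg19, which held 55501 of 57736 identifiers, and older symbols were matched through RefSeq.

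With 1 library per group the quasi-likelihood fit of edgeR has no residual degrees of freedom, no p-value is given and counting error took the place of the FDR of the study. Libraries were scaled by TMM (edgeR 4.0.16, R 4.3.3). A gene was called at a fold change above 3 whose exact 95% binomial interval (scipy 1.17.1) left out no change, when its reads over the libraries summed to at least 10. A count of 0 was set to 3 reads for bounds. log2 fold changes of lists have a prior count of 2. Intervals of ratios between genes are normal approximations on log counts with a multiplier of 1.96. On simulated counts with 200 genes changed 8-fold, all 100 raised and all 100 lowered genes were recovered. Of the other genes 72 were called among 18580, with counting noise as the only spread. The changed genes were drawn from those with an expected mean of at least 200 reads. This recovery therefore does not cover genes with fewer reads or fold changes near 3.

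The members and lists were chosen with earlier results of these data known. Genes named are all members, CARM1 and, from each list, called genes (at most 6 in each direction) and the 3 most read. EPCAM, MUC16, WT1, CLDN4, PDGFRB, CD3D, CD3E, MS4A1 and PTPRC, and the overlapping genes PELO and CERKL, are named outside this rule and were chosen after their values were seen. Of the endothelial markers 0 of 2 compared were called. RASSF5 and PECAM1 were not matched. Some called genes of the lists are not reported here. Alternatives were other scalings, read minimums, fold limits and prior counts, another gene length, and edgeR's exact test at assumed coefficients of variation.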

Additional observations from a re-analysis of the deposited data

How the results depend on the processing

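Under library size only, DESeq2 (1.42.0) size factors and upper-quartile scaling, 9 members were called higher in each case, among 2245, 2300 and 2326 genes, and 4, 3 and 3 lower, among 2135, 2067 and 2046, LAMA4 being the member lost, and CARM1 was lower in each. The strongest dependence was on the assumed spread. With edgeR's exact test at a coefficient of variation of 0.4 and an FDR under 0.05, 4 members were higher (ITGA2B, ITGB3, ITGB4 and LAMA3) and 1 was lower (ITGA8), among 532 genes higher and 894 lower in all, which follows from the wider spread assumed. ITGAV, ITGA1, LAMA4, ITGA4, ITGAX, LAMA1, LAMA2 and LAMB1 lost their calls there. At 0.12 the counts were 9 and 4, among 2204 and 1968 genes. When the whole interval had to lie past 3-fold, 5 members were higher, without ITGA4, ITGAX, LAMA2 and LAMB1, and 3 were lower, without LAMA4, among 1264 genes higher and 1245 lower. A fold limit of 2 gave 13 members higher and 5 lower, among 3344 higher and 3225 lower genes. With at least 50 reads 1226 genes were lower in place of 2092. For the members a median log2 change of 0.49 became 0.604 with a minimum of 1 read and 1.02 with at least 50 reads, as members with few reads enter in the first case and ITGA8, ITGA9, ITGA10, ITGAM and ITGB2 leave in the second. Of 99 comparisons of single members between scalings, 95 lay within the counting interval and 4, of ITGB1, ITGAV and LAMC1, outside it, and 0 changed direction among called members. A prior count of 0.5 kept all 33 log2 fold changes within the counting interval or, with a count of 0, in the same direction. The 5 highest members per kilobase in parental cells shared 4 with those by longest transcript. No paired analysis was possible because each group has 1 library, which also leaves no replicate to omit. Members under about 50 reads are limited by depth.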
